A study of Danio rerio with 2 samples.

Results

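The genes described here encode the presynaptic release machinery of zebrafish, followed in 1 RNA library from wild-type sibling embryos (called wild type) and 1 from supt16h mutant embryos. Neurons release transmitter when a synaptic vesicle fuses with the plasma membrane. Fusion is driven by SNARE proteins, in which a vesicle protein (VAMP, or synaptobrevin) zips together with syntaxin and SNAP25 on the plasma membrane. Unc13 and complexins prepare and hold this complex, synaptotagmins trigger it when they bind calcium, and the ATPase NSF takes it apart for reuse. Rab3 and the scaffold proteins RIM, Bassoon and Piccolo keep vesicles near the release site, and neurexins with neuroligins join the membranes across the synapse.

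Members were chosen by gene symbol from the authors' gene table, and 113 of its 34728 loci matched. They carry 110 distinct symbols. The families searched were syt, stx1, snap25, vamp, sv2, syn, syp, cplx, stxbp, rab3, rims, unc13, nrxn, nlgn, bsn, pclo, snca, sncb, sncg, gad, nsf and napb. Of these, snca and napb had no match in lower case, and bsn matched only bsnd. A match by symbol also takes relatives that act outside the synapse, such as vamp8, stx12, rab34a and nsfl1c. The members were therefore divided into 73 core neuronal loci, whose symbols name the forms known from neurons, and 40 other loci, most of them widely expressed paralogs. Of the 113 loci, 82 had a mean of at least 1 FPKM (fragments scaled to transcript length and to library size) over the libraries and are called measured, 50 of them core and 32 other. The remaining 31 were below that limit, among them 4 listed at 0 in both libraries. The locus bsnd, in the core division by its name alone, is known as a chloride channel subunit and not as Bassoon, and it was below the limit.

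Both libraries were made from whole embryos grown at 28 °C and collected at 32 hours post fertilisation, from 1 µg of total RNA by poly-A selection and stranded library preparation. The sibling embryos carry the strain label WT and the mutant embryos the label MUT and the genotype supt16h-/-, from a forward genetic screen whose mapping by linkage was the purpose of the series. The sources used here do not give the allele, the number of embryos per library, or whether heterozygous carriers were among the siblings. There was 1 library per genotype, so no test between genotypes was possible, and every difference describes these libraries alone. The mutated gene supt16h, whose product is part of the histone chaperone FACT, was listed at 44.4 FPKM in wild type and 2.98 FPKM in the mutant. In the authors' deposited table it fell by 3.90 on the log2 scale (implied standard error 0.69, q = 4.38e-05). Low FPKM values move in steps of 1 read, and from these steps the mutant library was estimated as 1.53 times as deep. This holds if FPKM was scaled to total reads, a setting not given, and neither depth is known. Markers of neurons, neural progenitors, skeletal muscle, epidermis and red cells were all measured in both libraries. None of the 6 red cell loci was at 0, and they summed to 6084 FPKM in wild type and 4430 FPKM in the mutant.

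The comparison asked whether the presynaptic genes stood at other levels in the mutant library than in wild type. As a group the core neuronal genes stood at nearly the same level in both. Their FPKM summed to 636 in wild type and 632 in the mutant library over 50 measured loci. The median difference of log2(FPKM + 1), mutant minus sibling, was -0.044 for core members, 0.014 for all 82 measured members and 0.001 for all 20638 measured loci of the table. Counts of loci past 2-fold or within 1.5-fold were made on that scale, which understates the change of low genes, while folds of single genes are ratios of FPKM. Whole embryos were measured, so fewer cells of a type and less RNA per cell cannot be told apart. Of the 82 measured members, 2 stood 2-fold or more above wild type in the mutant (2.44%, against 6.75% of all measured loci) and 1 stood 2-fold or more below (1.22%, against 8.36%). These were rims1a and stx11b.1 on the higher side and rab30 on the lower side. A difference of less than 1.5-fold was seen at 68 measured members (82.9%), against 65.5% of all measured loci. With a mean of at least 5 FPKM, 26 of 28 core members (92.9%) lay within 1.5-fold, against 64.2% of all loci at that level.

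**Figure D1:**
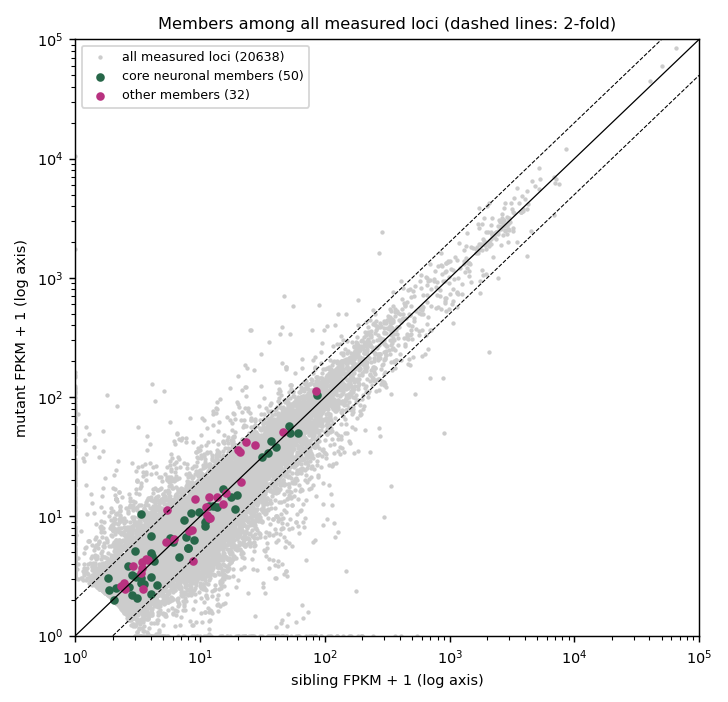
Each point is a locus with its FPKM + 1 in wild type (horizontal, log axis) and in the mutant library (vertical, log axis), grey for all 20638 measured loci, green for 50 core neuronal members and pink for 32 other members. The solid line marks equal levels and the dashed lines 2-fold, and all members but 3 lie between the dashed lines.

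None of the 113 members was called in the authors' deposited table, which tested 78 of them and called 94 of 20044 tested loci (0.469%). The smallest q of any member was 0.748 in the authors' deposited table. An unadjusted p below 0.05 was listed at 3 members in the authors' deposited table, namely rab30, stx11b.1 and cplx4a. The last was not tested there, which leaves 2 of 78 tested members in the authors' deposited table, against 6.43% of all tested loci. The error of that comparison was wide, and with 1 library per genotype it was not measured between replicates. From the authors' deposited table a standard error was taken as the log2 change divided by its statistic, and over measured members it had a median of 0.71, with a lowest value of 0.59 and a highest of 4.86. An interval of 1.96 such errors around the change still held a 2-fold difference in at least 1 direction at all 82 measured members. Small differences below are therefore not evidence that a gene was unaltered.

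**Figure D2:**
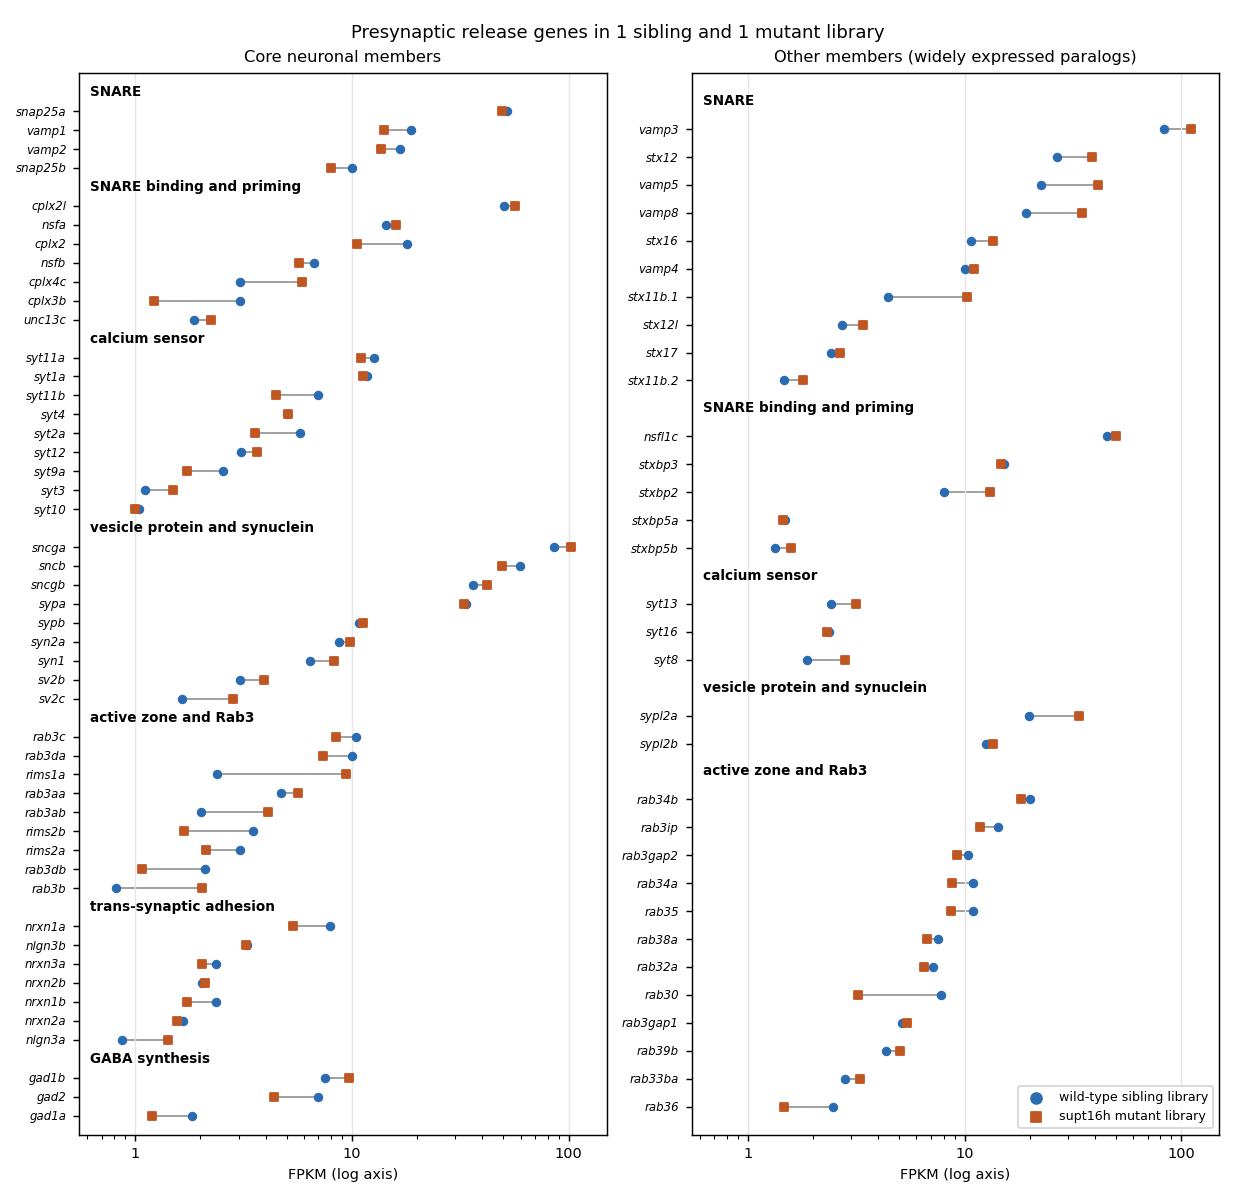
FPKM of 80 of the 82 measured members (log axis) in wild type (blue circles) and the mutant library (orange squares), core neuronal members on the left and other members on the right, ordered by role and mean level. Core SNARE genes lie close together between libraries, while all 10 other SNARE genes stand to the right in the mutant library.

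Among the SNAREs, the neuronal SNAP25 and VAMP genes stood within 1.5-fold between libraries. The gene snap25a, which encodes the main plasma membrane SNAP25 of this table, was listed at 51.8 FPKM in wild type and 49.2 FPKM in the mutant. Its log2 change in the authors' deposited table was -0.08 with an implied standard error of 0.66 and an interval from -1.37 to 1.21. The vesicle SNARE genes vamp2 (16.7 and 13.6 FPKM) and vamp1 (18.8 and 14.1 FPKM) and the second SNAP25 copy snap25b (10 and 8.02 FPKM) stood slightly lower in the mutant library.

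The SNARE members of other compartments differed in direction from most core SNARE genes. The rule takes SNAREs only by stx1, snap25 and vamp symbols, so SNAREs with other symbols were not examined. All 10 measured members of this kind stood higher in the mutant library, with log2 differences from 0.10 to 1.05 and a median of 0.36. Of all 20638 measured loci, 10338 stood higher. Among loci left out because their names are in capitals, STX10 (7.38 and 11.6 FPKM) and STX18 (12.4 and 13.5 FPKM) also stood higher, but STX19 stood lower at 2.02 and 0.723 FPKM. For all of the 10 members but stx11b.1, the interval around the log2 change in the authors' deposited table held 0. It ran from -1.57 to 1.85 at stx17 and from -0.31 to 2.05 at vamp8. The division into core and other members was made with earlier results of these data known. The sum of the 10 members was 183 FPKM in wild type and 268 FPKM in the mutant, a ratio of 1.46. The most abundant was vamp3, a SNARE of recycling endosomes, at 83.5 and 111 FPKM (log2 change 0.41, implied standard error 0.99 in the authors' deposited table). The neighbouring genes vamp8 and vamp5 showed near-equal ratios. The gene vamp8, whose product acts in endosomes and secretory granules of mammals, stood at 19.2 and 35 FPKM, 1.83-fold higher. The gene vamp5, known from mammalian muscle, stood at 22.5 and 41.3 FPKM, 1.84-fold higher. They lie 17.9 kb apart on chromosome 5 of the Zv9 build, vamp8 from 29915960 to 29923913 and vamp5 from 29941798 to 29952019. Of the syntaxins, stx12 of endosomes stood at 26.6 and 38.8 FPKM, stx16 of the Golgi at 10.7 and 13.6 FPKM, and stx17 of autophagosomes at 2.42 and 2.67 FPKM.

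The largest ratio of this set belonged to stx11b.1, at 4.42 FPKM in wild type and 10.3 FPKM in the mutant. In mammals, syntaxin 11 is known for granule release in lymphocytes. The log2 change of stx11b.1 in the authors' deposited table was 1.21, with an implied standard error of 0.62, an unadjusted p of 0.0486 and q = 0.762. Its tandem neighbour stx11b.2, 0.965 kb away on chromosome 20, stood at 1.47 and 1.79 FPKM. How reads were divided between these copies is uncertain.

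Skeletal muscle and epidermal markers stood higher with this set, while all 6 red cell loci stood lower, summing to 6084 FPKM in wild type and 4430 FPKM in the mutant. All 5 skeletal muscle markers and all 5 epidermal markers stood higher in the mutant library, with sums of 16076 and 24939 FPKM for muscle and 13089 and 18852 FPKM for epidermis in wild type and mutant. Their part in the levels of the other SNAREs was not tested. None of these 10 markers was at 0 in either library. The related genes sypl2a and stxbp2 also stood higher. The product of sypl2, a relative of synaptophysin, is known from the triads of mammalian muscle, and sypl2a stood at 19.8 and 33.7 FPKM against 12.6 and 13.5 FPKM for sypl2b. The gene stxbp2, known from granule release in epithelia and granulocytes of mammals, stood at 8.07 and 13.1 FPKM.

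Genes that bind and prime the SNARE complex had a median log2 difference of 0.022 over 8 measured core members. The complexin gene cplx2l stood at 50.5 and 56.7 FPKM in wild type and mutant. The log2 change of cplx2l was 0.17 in the authors' deposited table, with an implied standard error of 0.74. It was among the 10 most abundant members in each library. The recycling ATPase genes nsfa (14.4 and 16.0 FPKM) and nsfb (6.70 and 5.72 FPKM) differed in opposite directions by small amounts.

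The other complexins spread more widely. The gene cplx2 stood at 18 and 10.6 FPKM, 1.69-fold lower in the mutant library. The gene cplx3b, whose mammalian relative serves ribbon synapses of the retina, stood at 3.05 and 1.22 FPKM, and cplx4c at 3.03 and 5.90 FPKM. The span of cplx4c holds another measured locus, nmrk2, and its implied standard error of 4.86 in the authors' deposited table was the widest of the measured members. The gene cplx4a was listed at 0 in wild type and at 0.462 FPKM in the mutant, and cplx4b at 0 in both. The only Unc13 locus measured among the members, unc13c, stood at 1.86 and 2.23 FPKM. Measured Unc13 loci named in capitals stood lower in the mutant, and those below the limit differed in both directions. UNC13A (1 of 2) stood at 2.58 and 1.24 FPKM, and UNC13C (2 of 4) at 1.94 and 0.953 FPKM. In the authors' deposited table the intervals around both log2 changes held 0. Outside the synapse, nsfl1c, a cofactor of the ATPase p97, stood at 45.4 and 50.2 FPKM with a log2 change of 0.14 and an implied standard error of 1.01 in the authors' deposited table. Its span holds 3 other measured loci. The syntaxin-binding gene stxbp3 stood at 15.2 and 14.8 FPKM.

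All 12 measured synaptotagmin members lay within 1.5-fold between libraries on the log2(FPKM + 1) scale, and 9 of the 21 members were below the limit. Of the synaptotagmin loci named in capitals, only SYT2 (1 of 2) was measured, at 2.97 and 3.16 FPKM. The calcium sensor of fast release, syt1a, stood at 11.7 FPKM in wild type and 11.2 FPKM in the mutant. Its log2 change was -0.07 with an implied standard error of 0.84 in the authors' deposited table. The synaptotagmin with the highest mean was syt11a, which does not trigger fusion through calcium, at 12.6 and 11 FPKM (log2 change -0.20, implied standard error 0.61 in the authors' deposited table). The widest differences were seen at syt2a (5.74 and 3.59 FPKM), a sensor of fast release like syt1a, and at syt11b (6.98 and 4.45 FPKM). The gene syt4 was level at 5.01 and 5.05 FPKM.

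Vesicle proteins and synucleins had the highest summed level of the 7 core classes, at 246 FPKM in wild type and 264 FPKM in the mutant. They stood slightly higher in the mutant library, with a median log2 difference of 0.21 over 9 measured loci, 7 of them above 0. The gamma-synuclein gene sncga stood at 85.7 and 103 FPKM (log2 change 0.27, implied standard error 0.71 in the authors' deposited table), and its copy sncgb at 36.1 and 41.9 FPKM. The beta-synuclein gene sncb stood on the other side at 59.5 and 49.3 FPKM (log2 change -0.27, implied standard error 0.62 in the authors' deposited table). Synaptophysin, an abundant membrane protein of synaptic vesicles, was near equal for sypa (33.7 and 33.0 FPKM) and sypb (10.8 and 11.2 FPKM). The synapsins, which tether vesicles in the reserve pool, stood at 6.44 and 8.29 FPKM for syn1 and 8.72 and 9.85 FPKM for syn2a. The transporter-like vesicle proteins stood at 3.06 and 3.95 FPKM for sv2b and 1.64 and 2.83 FPKM for sv2c. Every one of these differences was smaller than 1.5-fold on the log2(FPKM + 1) scale.

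The active zone and Rab3 genes were the most uneven of the 7 core classes in these libraries. Of 9 measured members, 4 lay within 1.5-fold (44.4%, against 65.5% of all measured loci). All 9 were low, with means from 1.43 to 9.41 FPKM. The scaffold gene rims1a was listed at 2.38 FPKM in wild type and 9.42 FPKM in the mutant, 3.96-fold higher. Its log2 change of 1.99 in the authors' deposited table had an implied standard error of 3.03, with an interval from -3.96 to 7.93 and an unadjusted p of 0.513. Of the members at least 2-fold different it thus had the widest error. The locus spans 27856517 to 27991220 on chromosome 13 of Zv9. The other RIM genes stood lower, rims2b at 3.51 and 1.68 FPKM and rims2a at 3.05 and 2.12 FPKM.

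Rab3 is the small GTPase of synaptic vesicles, and its 6 measured genes differed in both directions, 3 above 0 and 3 below. The genes rab3aa (4.70 and 5.64 FPKM), rab3ab (2.02 and 4.09 FPKM) and rab3b (0.817 and 2.04 FPKM) stood higher in the mutant library. The genes rab3c (10.4 and 8.44 FPKM), rab3da (9.98 and 7.34 FPKM) and rab3db (2.11 and 1.07 FPKM) stood lower. The sum over all 6 differed little, at 30 FPKM in wild type and 28.6 FPKM in the mutant. The Piccolo loci named pcloa and pclob were below the limit. A locus named PCLO (1 of 2), at the coordinates of pcloa, was not matched because of its capitals and stood at 2.17 and 3.14 FPKM.

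Rab and Rab-related genes that share only the start of the symbol had 12 measured members. Of these, 9 stood lower in the mutant library and 3 higher, while 10300 of all 20638 measured loci stood lower. Their sums were 104 FPKM in wild type and 88.4 FPKM in the mutant. Among them, rab30, known from the Golgi, stood at 7.79 FPKM in wild type and 3.22 FPKM in the mutant. Its log2 change in the authors' deposited table was -1.27, with an implied standard error of 0.64, an unadjusted p of 0.0451 and q = 0.748. It lies on chromosome 15 from 10429167 to 10462341 in Zv9. The most abundant genes of this kind differed little, rab34b at 20.1 and 18.3 FPKM (log2 change -0.13, implied standard error 1.00 in the authors' deposited table) and rab3ip, an exchange factor of Rab8, at 14.2 and 11.8 FPKM (log2 change -0.27, implied standard error 0.72 in the authors' deposited table). The melanosome genes rab32a (7.12 and 6.52 FPKM) and rab38a (7.54 and 6.71 FPKM) also stood within 1.5-fold.

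The measured adhesion genes were low in both libraries, and adding 1 FPKM shrinks the differences of such genes. By ratio of FPKM the widest difference was at nlgn3a, at 0.868 and 1.42 FPKM, 1.64-fold higher in the mutant library. All 7 measured neurexin and neuroligin members lay within 1.5-fold on the log2(FPKM + 1) scale, and 6 of the 13 members were below the limit. The presynaptic receptor gene nrxn1a stood at 7.90 and 5.33 FPKM, with a log2 change of -0.57 and an implied standard error of 0.83 in the authors' deposited table. Summed over 5 measured loci, neurexins stood at 16.3 FPKM in wild type and 12.8 FPKM in the mutant. Neuroligins are their postsynaptic partners, and nlgn3b was level at 3.27 and 3.26 FPKM (implied standard error of the log2 change 0.60 in the authors' deposited table). Genes of GABA synthesis were mixed. The decarboxylase gene gad1b stood at 7.48 and 9.65 FPKM (log2 change 0.37, implied standard error 0.77 in the authors' deposited table). Its copy gad1a stood at 1.83 and 1.19 FPKM. The second decarboxylase gene, gad2, stood at 6.98 and 4.39 FPKM (log2 change -0.67, implied standard error 0.92 in the authors' deposited table).

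**Figure D3:**
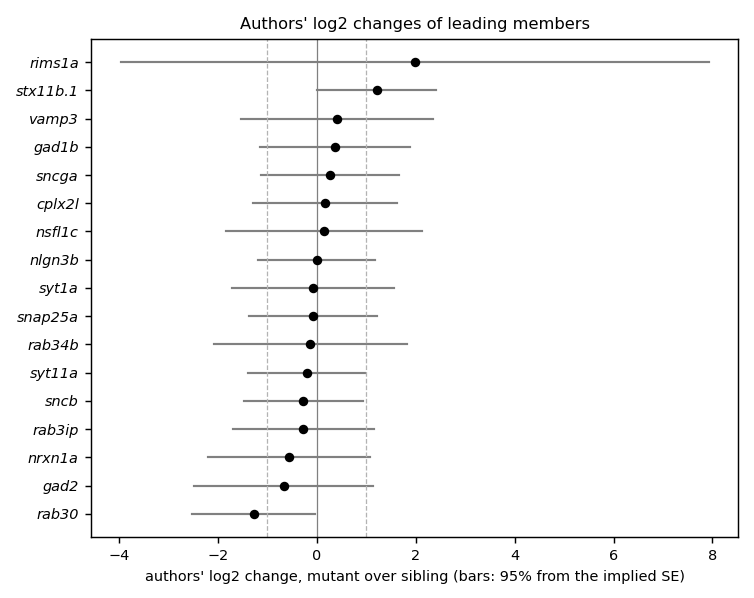
Log2 change of 17 members in the authors' deposited table, mutant over sibling, with bars of 1.96 implied standard errors on each side. The bars cross 0 for all but stx11b.1 and rab30, whose bars end at 0.01 and -0.03, and every bar crosses at least 1 dashed line at 2-fold.

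Many of these genes exist as a and b copies from the genome duplication of teleost fish, and the division between copies was compared across the libraries. Of 21 pairs with at least 1 measured copy, 19 had the same higher copy in both. The median change of the higher copy's share was 3.7 percentage points, and the largest was 12 percentage points. Near-complete use of 1 copy was seen for syt1a, with 100% in wild type and 97.9% in the mutant library. The share of snap25a was 83.8% and 86.0%, that of sypa 75.7% and 74.7%, and that of sncga 70.4% and 71.2%. The largest shift was at rab3aa, with 69.9% and 58%, beside rab3ab. The higher copy differed for rims2 and stxbp5, whose copies stood close to each other in both libraries. Copies of a pair can share reads, so these shares depend on how the authors' counting divided them. Across the 82 measured members the log2 levels in the libraries correlated with r = 0.952, and across all measured loci with r = 0.856. These describe loci of the same libraries, which are not replicates.

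**Figure D4:**
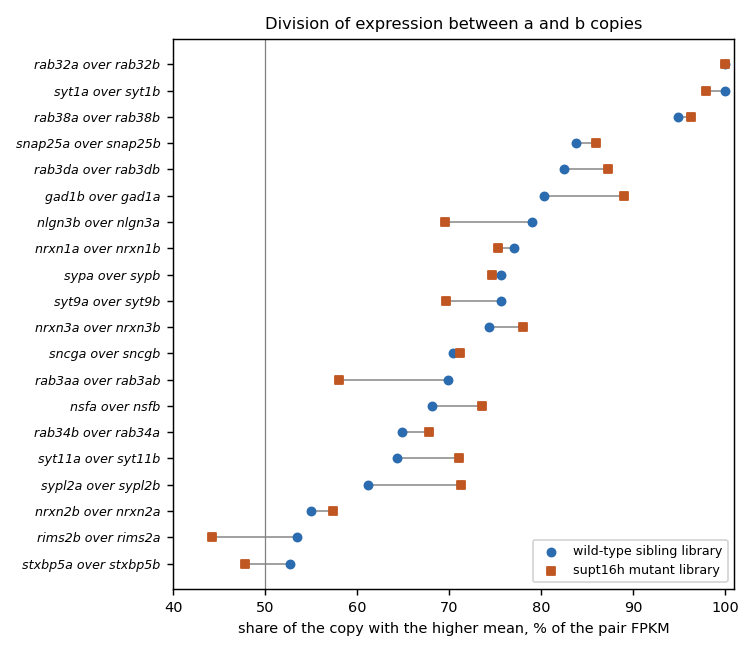
Share of the pair's summed FPKM held by the copy with the higher mean, for 20 of the 21 a and b pairs, in wild type (blue circles) and the mutant library (orange squares). The vertical line marks an equal division, which only the rims2 and stxbp5 pairs cross.

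Further genes of the synapse were taken from 4 lists that did not depend on the symbol rule, and 0 of their 41 measured loci were called in the authors' deposited table (against 0.469% of tested loci). Of these loci, 2 were at least 2-fold lower (4.88%, against 8.36% of all measured loci) and 0 at least 2-fold higher (against 6.75%), with a median log2 difference of -0.098. Transmitter loading and synthesis had a median of -0.052 over 10 loci. The vesicular glutamate transporter gene slc17a6b stood at 7.88 and 7.34 FPKM, the vesicular GABA and glycine transporter gene slc32a1 at 8.69 and 8.91 FPKM, and the vesicular acetylcholine transporter gene slc18a3a at 11.2 and 9.93 FPKM. These 3 genes stood near equal in both libraries, while the second glutamate transporter gene, slc17a6a, stood lower in the mutant at 3.56 and 2.47 FPKM. The widest differences of this list were at tph2 (0.612 and 1.82 FPKM) and slc6a5 (1.96 and 1.09 FPKM). By ratio of FPKM tph2 was 2.98-fold higher, but it stayed below 2-fold with 1 FPKM added. Vesicle recycling had a median of -0.244 over 10 loci, with the endocytic scaffold gene itsn1 at 7.4 and 4.2 FPKM and the dynamin gene dnm1a at 3.97 and 7.66 FPKM.

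The loci at least 2-fold lower were rimbp2 and scg5. The locus rimbp2, which binds RIM and calcium channels, was listed at 9.31 and 0.305 FPKM. Its log2 change of -4.93 in the authors' deposited table came with an implied standard error of 2.81 (q = 0.877), and the locus carries another copy's name as well. The secretory granule gene scg5 stood at 9.99 and 4.22 FPKM (log2 change -1.25, implied standard error 0.66, q = 0.822 in the authors' deposited table). The active zone list that includes rimbp2 had a median of -0.090 over 14 loci, and the dense core list had a median of -0.068 over 7 loci.

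Most markers of the nervous system stood lower in the mutant library, by differing amounts. The 14 measured neuron markers, of 15 listed, summed to 1005 FPKM in wild type and 680 FPKM in the mutant. This is a ratio of 0.677, against 0.994 for the core neuronal members. Much of that gap lies in elavl3 and tubb5, and the median log2 difference of the markers was -0.244, against -0.044 for the core genes. The RNA-binding protein gene elavl3, switched on early in neurons, was listed at 205 and 83.4 FPKM, and cntn2, for an adhesion protein of axons, at 8.73 and 3.47 FPKM. Of the other markers, those for tubulin and stathmin, tubb5 (280 and 170 FPKM) and stmn1b (102 and 57.1 FPKM), and hmp19 (36.0 and 21.6 FPKM) also stood lower. Others stood closer, with elavl4 at 25.3 and 22.1 FPKM, rtn1a at 132 and 125 FPKM, gap43 at 27.2 and 28.0 FPKM and stmn2a at 43.1 and 45.0 FPKM, and these genes were chosen after their values were seen. Of the 14 markers, 11 stood lower, 2 of them at least 2-fold lower (14.3%, against 8.36% of all measured loci), and 0 were at least 2-fold higher (against 6.75%). The authors' deposited table called 0 of them (against 0.469% of tested loci). The 9 markers of neural progenitors summed to 2190 FPKM in wild type and 919 FPKM in the mutant, a ratio of 0.420, with all 9 lower, 6 of them at least 2-fold lower, and 2 (her4.1 and notch1b) called in the authors' deposited table. None of the neuron or progenitor markers measured was at 0 in either library. With 1 library per genotype the difference between these groups and the presynaptic genes had no test, and their part in the members' levels was not tested.

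**Figure D5:**
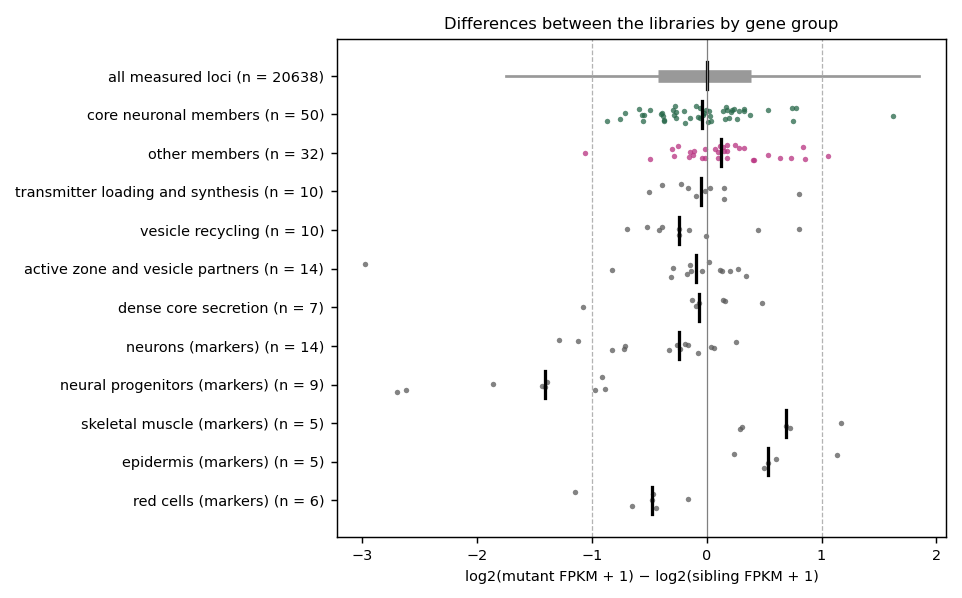
Difference of log2(FPKM + 1), mutant minus sibling, for each measured locus of the gene groups (points), with the median of each group (black bar), and for all loci the middle 50% (thick bar) and the middle 95% (thin bar). Core neuronal members centre at -0.044 and the progenitor markers at -1.41.

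The authors' deposited variant table gave a second view of the members. It lists 17 variant sites in 12 members, out of 7447 sites, without saying which library each came from. The sites had a coverage of 2 to 13 reads with a median of 4. Of them, 12 were synonymous, 4 changed an amino acid, 1 lay in an exon of rab34a with no codon given, and 0 were of a kind predicted to stop, shift or missplice the protein. Shares of these kinds over all 7447 sites are not given here, so the counts are not read as a trait of the members. Positions of the changes are counted in codons from the start of the coding sequence. The gene vamp4, a SNARE of the Golgi, had R68H with 5 reads and I79V with 7 reads. In the neurexins, nrxn2a had K358N and nrxn3b had a site given as G753D or G754D depending on the transcript, each with 2 reads. The gene syt10 had 3 synonymous sites, the most of any member. Every row of the table is given as homozygous, a call that rests on few reads at most of these sites.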

How the data were processed

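RNA of whole embryos was measured in 2 libraries, grouped by title. The submitters' processing notes give the Zv9 build and the tools Cuffdiff, Cufflinks 2.2.1, TopHat2 2.1.1 and CASAVA 1.8, with no settings. Per the file headers, the deposited gene table holds an FPKM value of each locus for either library. Its columns of log2 change, test statistic, p-value and q-value compare 1 library with 1 library and are quoted as the authors' deposited table. Per the file headers, SnpEff 3.1k annotated the deposited variant table, which holds a quality score and the coverage, a count of reads per site.

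Symbols were matched in lower case. Only loci with a mean of at least 1 FPKM, and no status of FAIL or HIDATA, were counted. Differences were taken on log2(FPKM + 1), which understates changes of low genes, without further scaling. Loci were counted at 2-fold. No p-value was computed. The implied standard error is the authors' log2 change over their statistic, and intervals used 1.96 of it, for 95%. With 1 library per group, that error comes from the authors' model and is not a measured spread between embryos. Relative depth was read as the most common ratio of values below 1 FPKM, shared by 7.59% of 4467 loci within a narrow window. The depth and median steps were tested on simulated data. Python 3.11.15, pandas 2.3.3, numpy 2.4.6 and matplotlib 3.10.9 were used.

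Any member could be named with its levels, but a few entered the counts and medians and are not reported here by name. The authors' change and its error are given for members at least 2-fold different and the 2 most abundant of each of 7 role classes, and for a few others chosen after their values were seen (cplx4c, rimbp2, scg5 and loci named in capitals). For stx17 and vamp8 the interval alone is given. The members, the core division, the 4 synapse lists and the 5 marker lists were chosen with earlier results of these data known. List symbols were matched directly or through RefSeq synonyms. Alternatives covered the added constant, the limit on low values, scaling, letter case, status and repeated symbols.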

Additional observations from a re-analysis of the deposited data

How the results depend on the processing

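Over all alternatives the median log2 difference ran from -0.029 to 0.015 for measured members and from -0.068 to -0.025 for core members. Its sign is thus undetermined for the members as a whole, at -0.006 when the median of loci with a mean of at least 10 FPKM was set to 0, a shift of 0.0196. The differences of the 10 other SNARE genes, the smallest 0.10 at stx17, all exceed that shift. Because the shift is so small, exceeding it does not show that their direction is stable. Counts at 2-fold are small and moved with the constant and the match. With 0.5 FPKM added, 2 members and 1 core member were at least 2-fold lower. With 5 FPKM added, 0 members passed 2-fold on the higher side, 0 on the lower side, and 0 core members on the higher side. With symbols in any case, 3 members and 2 core members were at least 2-fold lower. The other 47 values over the alternatives stayed within 1.5 times the count or within the 95% interval of the median. That interval ran from -0.07 to 0.15 for measured members and from -0.26 to 0.14 for core members. With 1 library per group it does not describe variation between embryos, and medians of largely the same loci could hardly leave it. Staying within it therefore does not show that the medians are stable. One alternative, leaving out members that share a span with another measured locus, was chosen after seeing the data. For the 17 members with full values, 51 of 51 recomputed differences moved by less than the implied standard error. That measure could hardly fail, because the errors are wide beside such changes of processing, so it does not show that the differences are stable. With 5 FPKM added, the log2 differences of rims1a (0.97), stx11b.1 (0.70) and rab30 (-0.64) fell below 2-fold. No paired analysis was possible because each group had 1 library. Without replicates, no difference could be set against variation between embryos.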

Other observations

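The symbol rule left out 43 loci whose names the table writes in capitals, and 24 of these were measured. They include release genes that the zebrafish names do not cover. Their median log2 difference was -0.034, and past 2-fold there was 1 locus on the mutant's higher side (4.17%, against 6.75% of all measured loci) and 2 on its lower side (8.33%, against 8.36%). The neuronal complexin locus CPLX1 (1 of 2) stood at 18.2 FPKM in wild type and 15.6 FPKM in the mutant, and the vesicle protein locus SV2A at 2.97 and 4.52 FPKM. The disassembly adaptor loci NAPB (1 of 2) and NAPB (2 of 2) stood at 4.06 and 6.08 FPKM and at 3.70 and 2.82 FPKM.

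The RIM1 copies were listed with differences in opposite directions, both with wide errors. The locus RIMS1 (2 of 2) was listed at 2.79 FPKM in wild type and 0.400 FPKM in the mutant, while rims1a stood at 2.38 and 9.42 FPKM. The interval around the log2 change of rims1a in the authors' deposited table, from -3.96 to 7.93, leaves its direction undetermined. The log2 change of RIMS1 (2 of 2) was -2.80 in the authors' deposited table, where its implied standard error was 1.35 and its q was 0.693. The locus UNC13B (2 of 5) was listed at 2.21 FPKM in wild type and at 0 in the mutant library, with an unadjusted p of 0.142 in the authors' deposited table. The locus RAB37, whose mammalian relative is known from secretory granules, was listed at 0.460 and 3.58 FPKM, with a log2 change of 2.96 (implied standard error 1.48, q 0.748) in the authors' deposited table.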
